A study of Homo sapiens with 4 samples.

Results

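Chemokines are small secreted proteins that draw leukocytes along a gradient, and they act through receptors that signal by G proteins. Ligands are grouped by the spacing of their first cysteines into the CXC and CC families. Some are made constantly, and others are made by myeloid cells after an interferon or inflammatory signal. CXCR4 holds leukemic and normal hematopoietic cells in the marrow through its ligand CXCL12.

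The genes described here are 10 chemokines and chemokine receptors, chosen by symbol: the ligands CXCL10, CXCL11, CXCL16, CXCL8, CCL2, CCL3, CCL4 and CCL5, and the receptors CXCR4 and CCR2. Of the 10, 9 are listed in the table of MV4-11 cells and 8 have values, out of 16490 genes with values. CCL2, the main ligand of CCR2, was not listed, and the transcript listed for CCL3 had no value in any library. RNA-seq was done on MV4-11, a human AML cell line of myelomonocytic type, in 2 libraries labelled NC (sh-NC, CEBPG present) and 2 labelled CEBPG3 (sh-CEBPG#3, CEBPG knockdown). Cells of both groups had been infected with lentivirus made from the pLKO.1-puro vector and selected with puromycin as stable lines, and the knockdown group carried 1 CEBPG hairpin. The sources used here do not say if replicates were separate cultures, so the p-values measure the spread between these libraries, which may be technical. In the test, the spread of a gene is weighed together with that of other genes of like level. A p-value therefore does not rest on the values of its gene alone. Expression is given as FPKM, a fragment count scaled by transcript length and by the mapped reads of a library, summed over the RefSeq transcripts of a gene. As FPKM is scaled by length, levels of different genes can be set side by side. The read depth is unknown, and no listed transcript with values was at 0 in all 4 libraries.

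CEBPG itself had 30.4 and 33.6 FPKM in sh-NC cells and 19.2 and 17.1 FPKM in sh-CEBPG#3 cells, or 56.8% of the control mean. The cells carried markers of the myelomonocytic lineage, among them FLT3 at 62.8 to 75.0 FPKM over the 4 libraries. A value was given for 12 of 12 such markers. The summed level of these markers was 1015 to 1111 FPKM in sh-NC cells and 3608 to 3794 FPKM in sh-CEBPG#3 cells, and 8 of the 11 tested were higher and none lower. Much of the sum was lysozyme (LYZ), at 567 and 610 FPKM against 3126 and 2982 FPKM. The monocyte marker CD14 was low, at 0.187 and 0 FPKM in sh-NC and 1.09 and 0.697 FPKM in sh-CEBPG#3 cells, and was not tested. None of 6 T cell markers and none of 5 erythroid markers was listed. The summed markers of NK cells were 56.4 to 57.4 FPKM in sh-NC and 66.1 to 67.1 FPKM in sh-CEBPG#3 cells, for B cells they were 3.11 to 3.24 and 2.83 to 2.98 FPKM, and for epithelial and stromal cells 30.7 to 34.7 and 55.7 to 59.5 FPKM. Of the NK, B and epithelial or stromal markers, 3 of 5, 4 of 5 and 5 of 8 had values. The 2 NK markers tested went opposite ways, NKG7 being called higher, at 42.2 and 42.3 FPKM against 53.4 and 55.8 FPKM, and NCAM1 lower, at 14.1 and 15.1 FPKM against 12.4 and 11.3 FPKM. Of 2 B cell markers tested 1 was lower and none higher, and of 3 epithelial or stromal markers tested 2 were higher and none lower. Those 2 were PECAM1, at 18.5 and 21.8 FPKM against 43.4 and 40.8 FPKM, and KRT8, at 2.29 and 2.35 FPKM against 6.26 and 6.19 FPKM. Most of the rise of that sum was PECAM1, and KRT18 was not called. Of the other markers on that list, EPCAM, CDH1 and COL1A2 were not listed in the table. COL1A1 and PDGFRB had at most 0.0781 FPKM in any library. Over all genes tested, 18.5% were higher and 23.8% lower by the same rule, given below. The part of these marker shifts in the chemokine results was not tested. In a bulk library, more cells of a kind and more RNA per cell cannot be told apart.

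Upon CEBPG knockdown, 5 of the 6 ligands with values rose, led by CXCL10 and CXCL8, while CCL5 did not pass the test. Of the receptors, CXCR4 fell and CCR2 rose. In all, 6 genes were higher and 1 was lower at an adjusted p under 0.05 (limma on log2(FPKM + 1) values, Benjamini-Hochberg adjustment over 12142 genes). Over all genes tested, 42.2% were called by the same rule, 18.5% higher and 23.8% lower. The groups did not overlap for the same 7 genes, and over all genes tested this was so for 31.5% in the higher and 40.2% in the lower direction. The 5 ligands were also beyond 2-fold on this scale, as were 2.33% of all genes in that direction, and no member was lower beyond 2-fold, against 1.04% of all genes. The median log2 fold change was 1.55 over the 8 genes and -0.038 over all genes tested. CXCL10, CXCL11 and CCL4 had an sh-NC mean under the filter of 0.5 FPKM and entered the test only through their level in sh-CEBPG#3 cells, so these counts describe the genes and are not support for a common change.

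**Figure D1:**
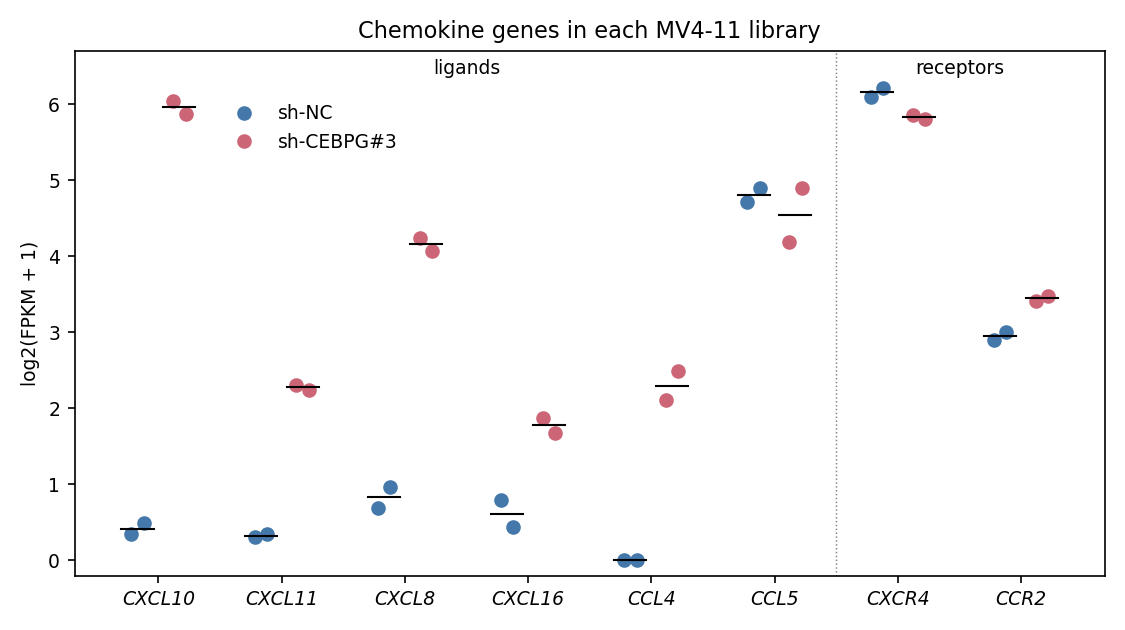
Each point is 1 MV4-11 library and each bar the mean of a group, with expression on the log2(FPKM + 1) scale on the vertical axis and the 8 genes with values along the horizontal axis. CXCL10 goes from the low end of the scale in sh-NC cells to the level of CXCR4 in sh-CEBPG#3 cells, whereas the groups overlap for CCL5.

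CXCL10 and CXCL11, with CXCL9, are the interferon-inducible ligands of CXCR3, a receptor of activated T cells and NK cells. CXCL10 had 0.267 and 0.403 FPKM in sh-NC cells and 64.9 and 57.5 FPKM in sh-CEBPG#3 cells. Both control values were near the bottom of the range, and both knockdown values were above the 56.7 and 55.0 FPKM of CXCR4 in the same libraries. The log2 fold change of CXCL10 was 5.54 (standard error 0.10, adjusted p = 4.58e-10 in limma), which was rank 2 among all increases on this scale. CXCL11 had 0.240 and 0.268 FPKM in sh-NC cells and 3.96 and 3.72 FPKM in sh-CEBPG#3 cells. The groups were well apart, and the log2 fold change of CXCL11 was 1.95 (standard error 0.12, adjusted p = 1.65e-06 in limma). CXCL10 and CXCL11 were tested only through their level in sh-CEBPG#3 cells, so the p of each is no support. The 2 transcripts of CXCL11 shared the signal unevenly, as NM_001302123 held 54.3% and 25.4% of the sum in sh-CEBPG#3 cells while the sum itself differed little. CXCL9 was listed at 0 in both control libraries and had 0.791 and 0.806 FPKM in sh-CEBPG#3 cells, under the filter and so not tested. The receptor CXCR3 had 0.572 and 1.03 FPKM in sh-NC cells and 3.45 and 3.57 FPKM in sh-CEBPG#3 cells, a log2 fold change of 1.34 (standard error 0.14, adjusted p = 5.56e-05 in limma).

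On GRCh38.p14, CXCL9, CXCL10 and CXCL11 lie side by side on chromosome 4, with CXCL10 from 76021118 to 76023497 and CXCL11 from 76033682 to 76036070, both on the minus strand. The gene ART3, an ADP-ribosyltransferase relative, spans both on the plus strand in the GENCODE annotation. Whether the values were computed with strand is not given in the sources used here, so reads of the 3 genes may not be told apart. ART3 had 0.554 and 0.566 FPKM in sh-NC cells and 0.748 and 0.847 FPKM in sh-CEBPG#3 cells (log2 fold change 0.20, standard error 0.14, adjusted p = 0.252 in limma), beside the 5.54 of CXCL10. Of the other genes of the neighborhood, 4 were tested and none was higher. NUP54, a nuclear pore subunit, fell (log2 fold change -0.30, standard error 0.08, adjusted p = 0.0158 in limma). NAAA (-0.24), SDAD1 (-0.16) and SCARB2 (0.27) did not pass, with adjusted p = 0.0577, 0.171 and 0.109 in limma, and FAM47E stayed at or under 0.123 FPKM in every library.

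The promoters of CXCL10, CXCL11 and CXCL8 are shown because these genes had low values in control cells, higher values upon knockdown and a promoter sequence. Each run holds the 250 bases before the transcription start on the gene's own strand, 5′ to 3′ (RefSeq, GRCh38.p14). CXCL10 is chr4:76023498-76023747 on the minus strand, CXCL11 is chr4:76036071-76036320 on the minus strand and CXCL8 is chr4:73740319-73740568 on the plus strand. Capitals mark matches, on either strand, to 5 short motifs named below.
CXCL10: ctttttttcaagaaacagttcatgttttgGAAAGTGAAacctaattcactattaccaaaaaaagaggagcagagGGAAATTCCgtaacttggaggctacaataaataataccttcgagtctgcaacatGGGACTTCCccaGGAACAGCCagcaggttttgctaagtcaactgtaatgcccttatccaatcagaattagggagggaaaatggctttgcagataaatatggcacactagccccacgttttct
CXCL11: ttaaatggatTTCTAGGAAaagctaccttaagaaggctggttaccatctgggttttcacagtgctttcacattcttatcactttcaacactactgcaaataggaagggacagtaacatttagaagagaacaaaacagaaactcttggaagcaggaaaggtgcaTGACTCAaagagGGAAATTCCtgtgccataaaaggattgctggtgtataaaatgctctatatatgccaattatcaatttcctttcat
CXCL8: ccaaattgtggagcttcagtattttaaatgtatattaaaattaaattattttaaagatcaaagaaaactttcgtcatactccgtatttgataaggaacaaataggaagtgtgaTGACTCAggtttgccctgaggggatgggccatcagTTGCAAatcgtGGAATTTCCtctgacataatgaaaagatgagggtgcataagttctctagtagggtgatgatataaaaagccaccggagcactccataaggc

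The motifs searched were the core of the interferon-stimulated response element (GAAANNGAA), the gamma-activated site (TTCNNNGAA), an NF-kB site (GGNNNTTCC), letters found in many C/EBP sites (TTGCAA) and the AP-1 site (TGANTCA). In CXCL10 the interferon-stimulated response element core was matched from 221 to 213 bases before the start, and the NF-kB letters were matched at 176 to 168, 122 to 114 and 110 to 102. CXCL11 held the gamma-activated site at 240 to 232, AP-1 at 87 to 81 and NF-kB at 75 to 67. In CXCL8, AP-1 was matched at 137 to 131, the C/EBP letters at 102 to 97 and NF-kB at 91 to 83. None of these matches overlapped another. Of 34943 promoter windows of this length, 6.87% held the interferon-stimulated response element core, 6.56% the gamma-activated site, 17.1% the NF-kB letters, 4.74% the C/EBP letters and 6.59% AP-1. A match describes letters only, and binding was not measured in these cells. Promoter sequences were matched for 6 of the 10 genes, and CXCL16, CCL2, CCL4 and CCL5 had none. The letters were not limited to the genes shown. CXCR4, which fell, held the NF-kB and the C/EBP letters, in windows of different starts. CCR2 held the interferon-stimulated response element core and AP-1, and CCL3 held that core in 1 window.

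CXCL8, also called IL-8, attracts neutrophils through CXCR1 and CXCR2 and is a classic product of NF-kB signalling. The gene lies on chromosome 4 from 73740569 to 73743716 and overlaps no gene annotated by GENCODE. CXCL8 had 0.618 and 0.955 FPKM in sh-NC cells and 17.9 and 15.8 FPKM in sh-CEBPG#3 cells. The groups did not overlap, and the knockdown mean was 21.5 times the control mean. The log2 fold change of CXCL8 was 3.33 (standard error 0.12, adjusted p = 3.84e-08 in limma). CXCR2 had 1.66 and 2.44 FPKM in sh-NC cells and 2.55 and 2.86 FPKM in sh-CEBPG#3 cells (log2 fold change 0.29, standard error 0.14, adjusted p = 0.118 in limma), and CXCR1 was not listed. Among ligands near CXCL8 on chromosome 4 that share its receptors, CXCL2 had 0.207 and 0.0387 FPKM in sh-NC cells and 0.150 and 0.523 FPKM in sh-CEBPG#3 cells, CXCL6 did not exceed 0.036 FPKM, and CXCL1, CXCL3 and CXCL5 were not listed.

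CXCL16 is made as a membrane protein that is shed by the proteases ADAM10 and ADAM17 and binds CXCR6. The gene (chromosome 17, 4733533 to 4739928) overlaps MED11 and ZMYND15, on the other strand, at its ends. CXCL16 had 0.735 and 0.353 FPKM in sh-NC cells and 2.67 and 2.20 FPKM in sh-CEBPG#3 cells. Both knockdown values lay above both control values. The log2 fold change of CXCL16 was 1.16 (standard error 0.15, adjusted p = 0.000229 in limma). It was 0.98 without sh-NC replicate 2, so the place of CXCL16 beyond 2-fold rested on that library. ADAM17 rose from 7.60 and 7.22 FPKM to 14.6 and 13.7 FPKM (log2 fold change 0.85, standard error 0.09, adjusted p = 4.25e-05 in limma). CXCR6 was at or under 0.0863 FPKM in every library.

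CCL3, CCL4 and CCL5 are inflammatory CC ligands, and CCL3 and CCL5 bind CCR1. All 3 lie on chromosome 17, CCL5 from 35871491 to 35880360, CCL3 from 36088256 to 36090143 and CCL4 from 36103827 to 36105614, with CCL2 from 34255285 to 34257203. CCL5 and CCL3 are overlapped by genes of the other strand, while CCL4 overlaps none. CCL4 was listed at 0 in both control libraries and had 3.32 and 4.60 FPKM in sh-CEBPG#3 cells. On the log2(FPKM + 1) scale the difference was 2.30 (standard error 0.15, adjusted p = 2.47e-06 in limma), and no fold is given, since a 0 without counts has no floor. CCL4 also entered the test only through its level in sh-CEBPG#3 cells, so its p is no support. CCL3 and CCL4 have near-identical copies, CCL3L1, CCL3L3, CCL4L1 and CCL4L2, among which reads can be split. The CCL3 copies summed to 0 and 0.0756 FPKM in sh-NC cells and to 4.14 and 4.21 FPKM in sh-CEBPG#3 cells. Between the knockdown libraries the sum hardly differed, yet CCL3L1 went from 3.30 to 1.13 FPKM and CCL3L3 from 0.839 to 3.08 FPKM. CCL3L1 by itself passed the test (log2 fold change 1.54, standard error 0.26, adjusted p = 0.00116 in limma). Its sh-NC mean was under the filter, so CCL3L1 was tested only through sh-CEBPG#3 cells and its p is no support. CCL4 with its copies summed to 0 in both sh-NC libraries and to 4.11 and 10.6 FPKM in sh-CEBPG#3 cells. Most of that spread was CCL4L1, at 0.0186 and 5.75 FPKM, which did not pass (adjusted p = 0.0990 in limma). The value of each copy is therefore uncertain.

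CCL5, also called RANTES, was the ligand with the highest level in sh-NC cells, at 25.1 and 28.7 FPKM. The sh-CEBPG#3 libraries had 17.2 and 28.7 FPKM, so that replicate 1 was below both control libraries and replicate 2 was level with the higher of them. The log2 fold change of CCL5 was -0.26 (standard error 0.18, adjusted p = 0.267 in limma), which does not show that the level stayed the same. The split between its 2 transcripts was not the same in every library. NM_002985 held 96.6% and 95.1% of the sum in the sh-NC libraries, 99.4% in sh-CEBPG#3 replicate 2 and 0% in sh-CEBPG#3 replicate 1, where NM_001278736 carried the whole 17.2 FPKM. The lower gene sum and the other transcript thus fell in the same library. Without that library the log2 fold change of CCL5 was 0.093, and without sh-CEBPG#3 replicate 2 it was -0.61. Without sh-NC replicate 1 it was -0.35. The standard error of that last fit was 0.10, below the 0.18 of all 4 libraries, so it does not reflect the spread between 17.2 and 28.7 FPKM.

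**Figure D2:**
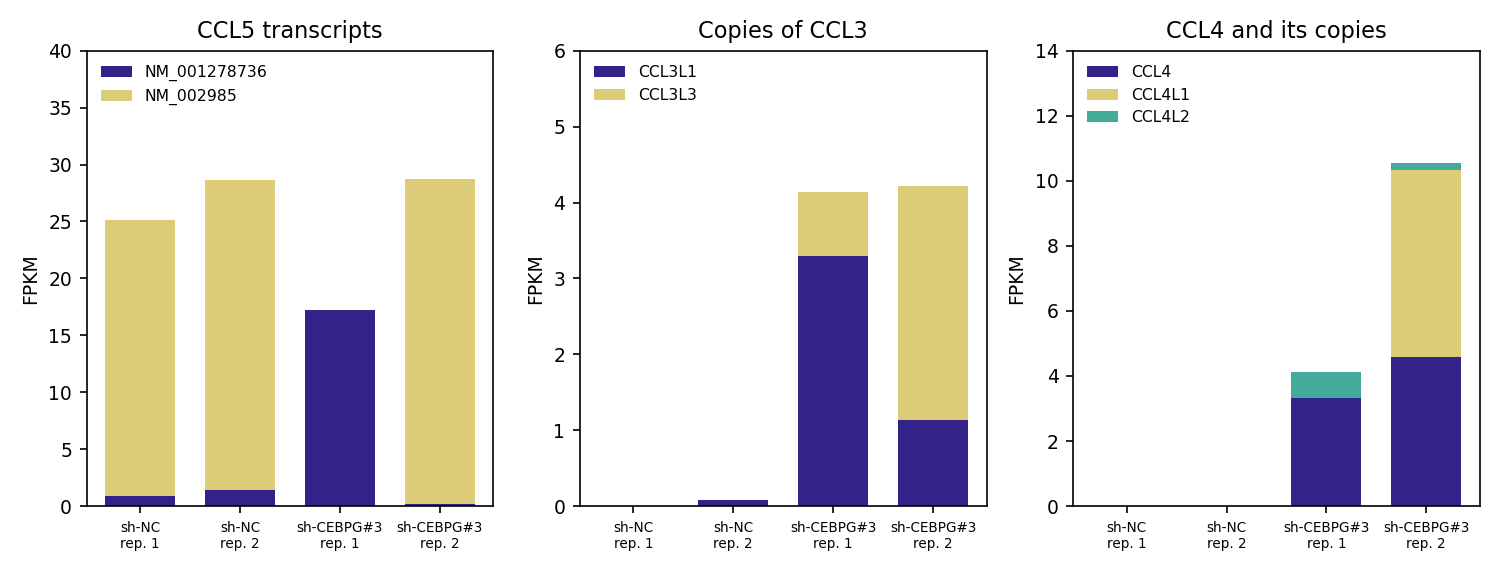
Stacked bars give FPKM on the vertical axis in each of the 4 libraries for the 2 transcripts of CCL5, the copies CCL3L1 and CCL3L3, and CCL4 with CCL4L1 and CCL4L2. NM_001278736 fills the CCL5 bar in sh-CEBPG#3 replicate 1, where the other libraries hold almost only NM_002985, and the split among copies differs between the sh-CEBPG#3 libraries.

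CXCR4 lies on chromosome 2 from 136114349 to 136118149. It had the highest level of the 10 genes in control cells, at 67.4 and 73.0 FPKM. CXCR4 had 56.7 and 55.0 FPKM in sh-CEBPG#3 cells, so both were below both controls and 79.5% of the control mean remained. The log2 fold change of CXCR4 was -0.32 (standard error 0.07, adjusted p = 0.00579 in limma). Without sh-CEBPG#3 replicate 2 it was -0.30 and no longer passed (adjusted p = 0.0629 in limma). The transcript NM_003467 held 94.2% to 97.1% of CXCR4 in every library. Its ligand CXCL12 was not listed.

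CCR2 marks classical monocytes and brings them out of the marrow. The gene lies on chromosome 3 from 46354111 to 46360940. CCR2 had 6.46 and 7.003 FPKM in sh-NC cells and 9.64 and 10.1 FPKM in sh-CEBPG#3 cells, with no overlap between the groups. The knockdown mean of CCR2 was 147% of the control mean, with a log2 fold change of 0.49 (standard error 0.09, adjusted p = 0.00161 in limma). Its 2 transcripts were about equal in every library, NM_001123041 holding 47.1% to 53.3% of the sum. CCR1, of the same receptor cluster on chromosome 3, also rose, from 5.29 and 5.38 FPKM to 10.7 and 10.1 FPKM (log2 fold change 0.85, standard error 0.09, adjusted p = 5.35e-05 in limma).

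The order of levels changed between the groups. In sh-NC cells CXCR4 (mean 70.2 ± 3.96 FPKM, SD, n = 2) stood above CCL5 (26.9 ± 2.498), CCR2 (6.73 ± 0.384), CXCL8 (0.787 ± 0.238), CXCL16 (0.544 ± 0.269), CXCL10 (0.335 ± 0.0962) and CXCL11 (0.254 ± 0.0198). From CXCL8 down, the values of neighbors in this order overlapped. In sh-CEBPG#3 cells CXCL10 (61.2 ± 5.20 FPKM, SD, n = 2) came before CXCR4 (55.8 ± 1.18), CCL5 (22.9 ± 8.14), CXCL8 (16.9 ± 1.48), CCR2 (9.88 ± 0.343), CXCL11 (3.84 ± 0.167) and CXCL16 (2.43 ± 0.327). There the values of CCL5 and CXCL8 overlapped, while those of CXCL10 and CXCR4 did not. CCL4, listed at 0 in control cells, had values there that overlapped those of CXCL11.

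Summed over the 20 ligands of the family with a value, the copy CCL3L3 included, chemokine mRNA was 35.1 and 37.5 FPKM in sh-NC cells and 126 and 134 FPKM in sh-CEBPG#3 cells. CCL5 made up 71.7% and 76.4% of the ligand sum in sh-NC cells and 13.7% and 21.4% in sh-CEBPG#3 cells. CXCL10 was 0.762% and 1.07% of the sum in control cells and 51.6% and 42.9% upon knockdown, and CXCL8 went from 1.76% and 2.54% to 14.3% and 11.8%. Leaving out CCL5, the sum was 9.92 and 8.86 FPKM in sh-NC cells and 108 and 105 FPKM in sh-CEBPG#3 cells. The sum over 18 receptors with a value moved little, at 90.8 and 99.5 FPKM against 99.7 and 96.4 FPKM. Within it, CXCR4 held 74.2% and 73.3% in sh-NC cells and 56.8% and 57.0% in sh-CEBPG#3 cells. These sums describe the libraries and were not tested.

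**Figure D3:**
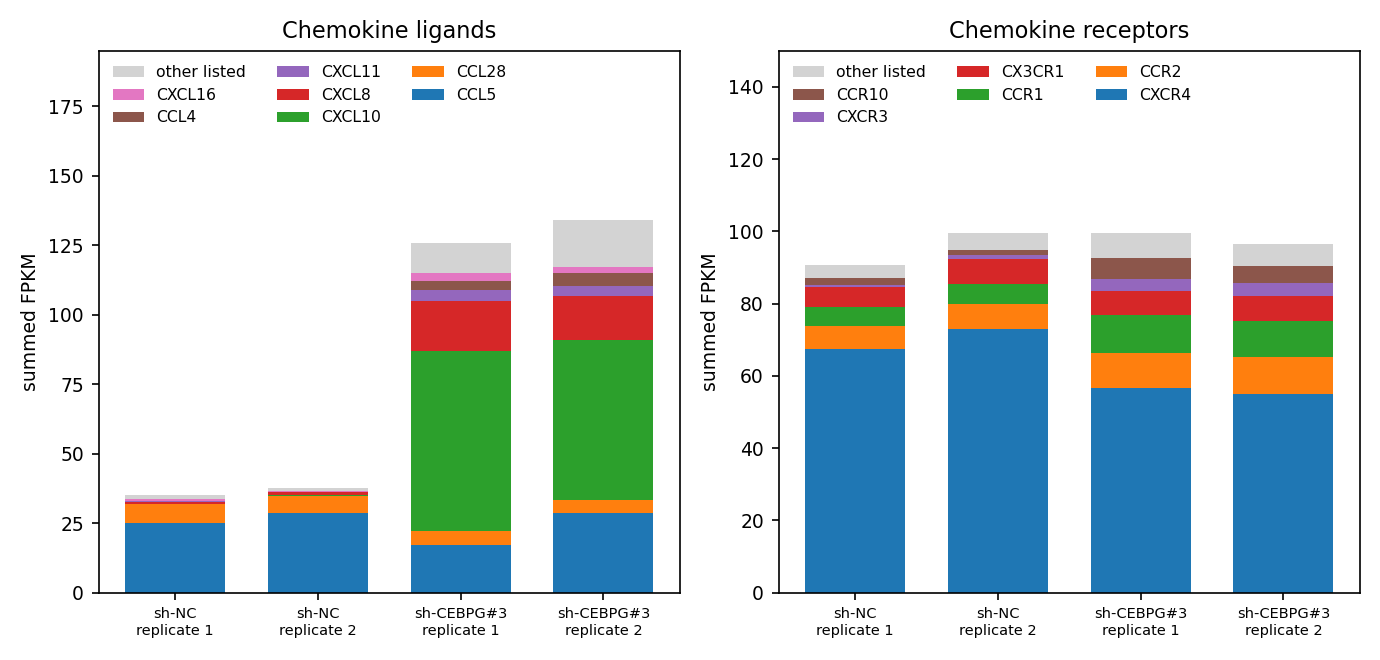
Stacked bars give the summed FPKM of the chemokine ligands with values (left) and of the receptors (right) on the vertical axis in each of the 4 libraries. The ligand bars are 35.1 and 37.5 FPKM in sh-NC cells, mostly CCL5, and 126 and 134 FPKM in sh-CEBPG#3 cells, with CXCL10 as the largest block, while the receptor bars are of like height and mostly CXCR4.

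Of the 39 other ligands of the family, 13 had values and 5 passed the filter. Of those 5, 3 were higher and 1 lower, beside 18.5% and 23.8% of all genes tested. For 4 of these 5, among them all 3 called higher, the sh-NC mean was under the filter, so their p is no support. CCL24, an eotaxin of CCR3, rose from 0.540 and 0.281 FPKM to 2.07 and 3.32 FPKM (log2 fold change 1.37, standard error 0.17, adjusted p = 0.000190 in limma). CCL23, a ligand of CCR1, rose from 0.236 and 0.132 FPKM to 1.87 and 1.30 FPKM (1.12, standard error 0.15, adjusted p = 0.000308 in limma). CCL28, a mucosal ligand of CCR10, fell from 6.65 and 6.10 FPKM to 4.99 and 4.69 FPKM (-0.34, standard error 0.10, adjusted p = 0.0169 in limma). Without sh-NC replicate 1, or without sh-CEBPG#3 replicate 2, the count called lower was 0. The median log2 fold change of the 5 was 1.37.

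Of 23 other receptors, 16 had values and 8 passed the filter. Of those 8, 5 were higher and none was lower, beside 18.5% and 23.8% of all genes tested. The median log2 fold change of the 8 was 0.65. Beside CXCR3 and CCR1, CCR10 rose from 1.99 and 1.55 FPKM to 5.68 and 4.72 FPKM (log2 fold change 1.16, standard error 0.12, adjusted p = 6.35e-05 in limma). CCR7, which guides cells to lymph nodes, rose from 0.519 and 0.570 FPKM to 1.97 and 1.29 FPKM (0.76, standard error 0.15, adjusted p = 0.00303 in limma). CCRL2, a receptor-like protein that binds chemerin, went from 0.311 and 0.640 FPKM to 1.39 and 0.893 FPKM (0.54, standard error 0.17, adjusted p = 0.0268 in limma). Its sh-NC mean was under the filter, as for 2 of these 8 receptors in all, so CCRL2 was tested only through its level in sh-CEBPG#3 cells and its p is no support. CX3CR1, the receptor of fractalkine, had 5.37 and 6.94 FPKM against 6.49 and 6.86 FPKM (adjusted p = 0.471 in limma).

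**Figure D4:**
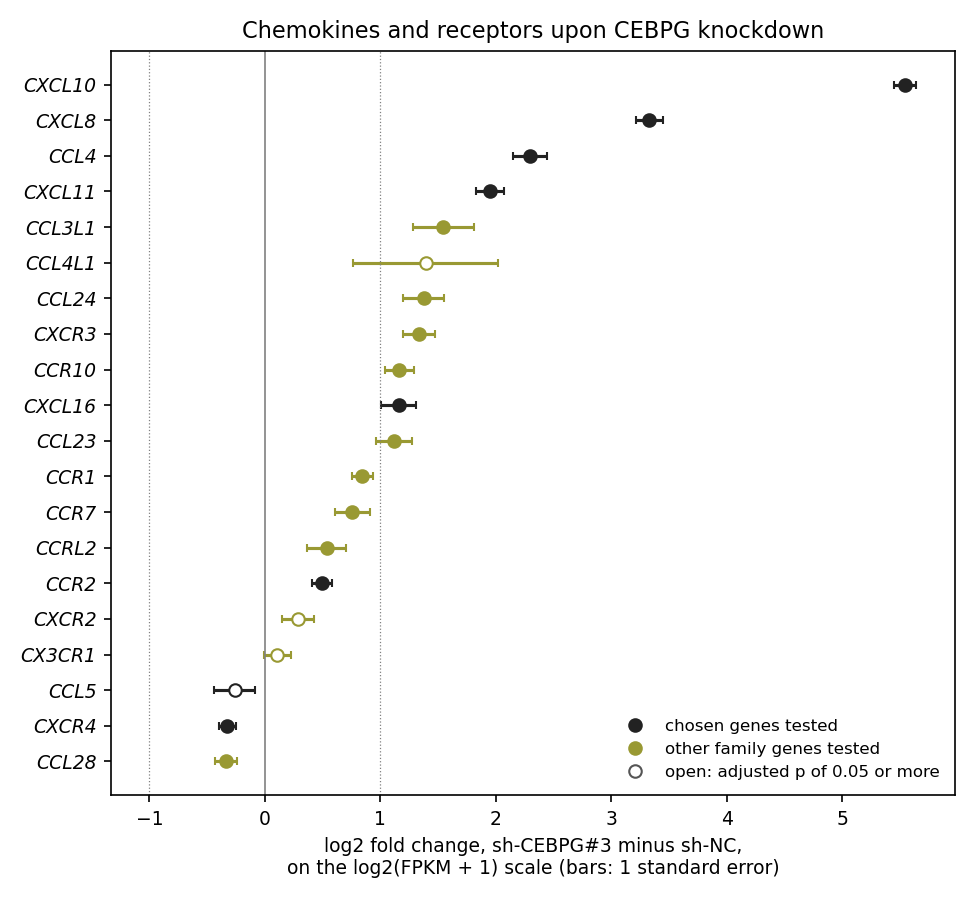
Points give the log2 fold change of tested ligands and receptors (sh-CEBPG#3 minus sh-NC, on the log2(FPKM + 1) scale) with bars of 1 standard error from limma, and filled points passed an adjusted p under 0.05. CXCL10 at 5.54 and CXCL8 at 3.33 are farthest to the right, while CXCR4 and CCL28 are the filled points left of 0.

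Of 31 genes that carry the receptor signal, 30 were tested. Of these, 11 were higher and 4 lower, beside 18.5% and 23.8% of all genes tested. The median log2 fold change of the 30 was 0.15. RGS1, which shuts off G protein signalling by chemokine receptors, rose from 0.716 and 0.830 FPKM to 3.69 and 3.001 FPKM (1.29, standard error 0.13, adjusted p = 3.70e-05 in limma). RGS18, of the same family, rose from 2.06 and 2.38 FPKM to 4.01 and 4.61 FPKM (0.72, standard error 0.11, adjusted p = 0.000679 in limma). RHOA, a GTPase of cell movement, rose from 158 and 171 FPKM to 248 and 242 FPKM (0.57, standard error 0.07, adjusted p = 0.000164 in limma). Of 14 genes for proteins that cut or hold chemokines, 11 were tested. Of these, 9 were higher and none was lower, beside the same 18.5% and 23.8% of all genes. The median of the 11 was 0.32. PRTN3 (1.38) and ELANE (1.04), neutrophil proteases that trim chemokines, and ADAM17 (0.85) had the largest log2 fold changes, and the adjusted p from limma was 4.25e-05 or less for each.

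Of 20 genes for cytokines, receptors and factors that induce chemokines, 15 were tested. Of these, 10 were higher and none was lower, beside 18.5% and 23.8% of all genes tested. The median log2 fold change of the 15 was 0.49. IRF9, the DNA-binding subunit of the interferon-activated complex ISGF3, rose from 3.99 and 4.13 FPKM to 31.4 and 29.9 FPKM (2.64, standard error 0.08, adjusted p = 1.65e-08 in limma). IL1B, an inflammatory cytokine that induces CXCL8, rose from 1.02 and 0.742 FPKM to 7.76 and 7.75 FPKM (2.22, standard error 0.11, adjusted p = 4.61e-07 in limma). IFNB1, the gene of interferon beta, had 0.0818 and 0 FPKM in sh-NC cells and 0.0730 and 0.188 FPKM in sh-CEBPG#3 cells, and IFNA1, IFNG and IFNL1 were not listed.

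Outside these lists, the 5 genes whose values over the 4 libraries lay nearest to those of CXCL10, by Euclidean distance of log2(FPKM + 1) from the sh-NC mean, were IFI6, OAS2, IL4I1, OAS1 and IFIT3. Their distances were 1.32, 1.58, 1.69, 1.83 and 1.88 on this scale. Their log2 fold changes ran from 4.22 for IFIT3 to 6.47 for IFI6. With 4 libraries in 2 groups, this likeness is mostly the size of the difference between the groups.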

How the data were processed

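RNA-seq of MV4-11 cells was analysed, with 2 sh-NC and 2 sh-CEBPG#3 libraries grouped by their titles. The authors filtered the reads and mapped them with HISAT (HISAT2 2.0.5 and hg38 in the submitters' processing notes), and deposited FPKM values per RefSeq transcript. The program that computed FPKM is not given in the sources used here. Of 28780 transcripts, 199 have no value. FPKM totals were 364353 to 389766 per library. Depth is unknown: of 1027 transcripts under 0.06 FPKM, at most 0.487% shared 1 ratio between the sh-NC libraries, so no steps of whole reads were seen.

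Values were summed by symbol. The 12142 genes whose mean reached 0.5 FPKM were compared as log2(FPKM + 1) with limma 3.58.1 in R 4.3.3 (trend, no block). The code was checked on simulated data with few changed genes and independent noise, which does not test the calls made here. P-values were adjusted by Benjamini-Hochberg over all 12142 genes. Fold changes on this scale understate changes of low genes. The smallest two-sided p of an exact permutation test in this design is 0.333. Named were the 10 members, all tested relatives that passed, the 3 largest changes of each other list (some genes are not reported here), the genes beside CXCL10 and the 5 nearest to CXCL10. Members and lists were chosen with earlier results of these data known. Same-numbered libraries deviated with a correlation of 0.061 over genes, which does not pair them. Alternatives were other pseudocounts, filters and scalings, a block, the most abundant transcript and each library left out. Coordinates and sequences come from RefSeq GRCh38.p14 tables, and overlapping genes from GENCODE v44.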

Additional observations from a re-analysis of the deposited data

How the results depend on the processing

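CXCL10, CXCL11, CXCL16, CXCL8, CCL4 and CCR2 kept their direction under all 12 alternatives each. In the 8 alternatives with all 4 libraries, each also kept an adjusted p under 0.05 in limma. Except with no filter, CXCL10, CXCL11 and CCL4 entered only through their level in sh-CEBPG#3 cells, so their passing there is no support. With the filter at 1 FPKM the same holds for CXCL8 and CXCL16, whose sh-NC means were 0.787 and 0.544 FPKM. Pseudocounts below 1 widened the log2 fold changes of the low genes, and with 0.01 they were 7.497 for CXCL10, 3.87 for CXCL11, 2.23 for CXCL16, 4.44 for CXCL8 and 8.61 for CCL4. As CCL4 is at 0 in both sh-NC libraries, its value is set by the pseudocount and is no fold. With each library left out, the lone library of a group is assumed to vary like the others. Those fits also draw on the spread of other genes, so their calls need not reflect a gene's own spread. Without sh-CEBPG#3 replicate 2 the log2 fold change was -0.61 for CCL5 and -0.30 for CXCR4. CXCL16 was at 0.98, under 2-fold, without sh-NC replicate 2. CXCR4 ranged from -0.38 to -0.27 over the libraries left out. CCL5 (-0.26) reversed to 0.093 without sh-CEBPG#3 replicate 1, ranged from -0.61 to 0.093 over the libraries left out, and was -2.30 (adjusted p = 0.327 in limma) for its most abundant transcript, since that transcript is at 0 in the same library. The other relatives called were 8 higher and 1 lower, the latter being CCL28, and were 7 to 11 higher and 0 to 1 lower with each library left out, being 0 without sh-NC replicate 1 and without sh-CEBPG#3 replicate 2. The lower count was 0 with no filter and 0 for the most abundant transcript. With the replicate number as a block 6 members were higher and 1 lower, the same counts as without it. Over all genes, 5128 were called, against 4761 with the block and 2864 for the most abundant transcript, and 4031 to 5013 with a library left out. Depth was unknown, so how precise the values under 1 FPKM are could not be stated.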
